A study of Mus musculus with 4 samples.

Results

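The 10 circadian clock genes Nr1d1, Nr1d2, Dbp, Tef, Per1, Per2, Per3, Arntl, Ciart and Cry1 were followed through the cell classes of the dissociated mouse brain. They were taken by symbol from the 31053 genes of the count matrices, and all 10 were found. The set was chosen by membership of the clock once the difference of Nr1d1 between inhibitor groups in endothelial-like cells was known, so calls and values of that comparison are given as a description of these libraries, with no p-value printed for a gene, and are no independent evidence. The RNA of single cells was sequenced from droplets for 4 mice, all of them males of the strain C57BL/6J at postnatal day 90. Every whole brain gave a library of its own, and the labels name no allele or transgene. All brains were enzymatically dissociated at 37 °C. For 2 mice no inhibitors were used. For the other 2 mice the transcription inhibitors actinomycin D and triptolide were present during perfusion, dissection and digestion, and the translation inhibitor anisomycin was added for the dissection and digestion steps. By their labels the 4 libraries belong to Batch 1, and the study's methods state a 12-h light and 12-h dark cycle and an order of processing that alternated between groups. The time of day at which each brain was taken is not given in the sources used here, and its part in any difference between animals was not tested.

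The mammalian clock is a feedback loop of transcription that runs in nearly every cell with a period of about a day. ARNTL (BMAL1) pairs with CLOCK and binds E-box sequences to switch on the Per and Cry genes, whose proteins then repress that pair, and Ciart encodes a further repressor of it. The same pair switches on Nr1d1 and Nr1d2, which encode the REV-ERB nuclear receptors that repress Arntl in turn, and Dbp, which with Tef encodes PAR bZIP factors that bind D-box sequences. Many of these messages are short-lived and peak at different times of day, so a single time of collection shows each gene at its own point of the cycle. Per1 is also a gene that many cells switch on rapidly after a stimulus, in the manner of immediate-early genes.

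The genes lie on 8 chromosomes of GRCm38 (GENCODE M21). Nr1d1 is at chr11:98767932-98775333, Nr1d2 at chr14:18204054-18239127, Per2 at chr1:91415982-91459324, Per3 at chr4:151003652-151044665, Ciart at chr3:95878503-95882251 and Cry1 at chr10:85131700-85185064, all on the minus strand. Dbp is at chr7:45705088-45710203, Tef at chr15:81802421-81826863, Per1 at chr11:69095217-69109960 and Arntl at chr7:113207465-113314126, all on the plus strand. On the opposite strand Thra overlaps Nr1d1, Sphk2 overlaps Dbp, Gm17597 overlaps Tef, Gm45355 overlaps Arntl and C920021L13Rik overlaps Ciart, and reads of such stretches are uncertain if strand was not used in counting.

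The promoter windows that held an E-box or D-box are shown because these are the sequences through which the clock factors act on their targets. In the 250 bases before the annotated start sites, RefSeq promoter sequences (build GRCm38.p6) were found for 9 of the 10 genes at 12 start sites, and Per2 had no entry. Both strands were searched for the E-box CACGTG, the D-box forms TTATGTAA and TTACGTAA, the core TAGGTCA bound by ROR and REV-ERB factors, the cyclic AMP element TGACGTCA and its shorter core TGACG, which lies within the longer element. Capitals mark the motif in each of the following windows, read 5′ to 3′ on the strand of the gene.
Ciart E-box at position -116: gcatctagagtCACGTGttgccggtaag
Ciart E-box at position -58: gcagggggaggCACGTGcagaaccgcac
Ciart E-box at position -44: gtgcagaaccgCACGTGtctgggagggg
Cry1 E-box at position -60: gtgccggtggtCACGTGgggtgcatgcc
Per1 E-box at position -166: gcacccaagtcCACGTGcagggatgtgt
Per3 D-box at position -205: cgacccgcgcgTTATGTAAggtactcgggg
Per3 D-box at position -158: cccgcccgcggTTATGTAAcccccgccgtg
The 3 Ciart windows lie on the minus strand upstream of the gene at chr3:95882328-95882355, chr3:95882270-95882297 and chr3:95882256-95882283, and the last 2 overlap. The Cry1 window is upstream of the gene on the minus strand at chr10:85185098-85185125. The Per1 window is on the plus strand at chr11:69098772-69098799, which precedes an internal start site and falls in an intron of the gene. The Per3 windows are upstream of the gene on the minus strand at chr4:151044852-151044881 and chr4:151044805-151044834. Tef held an E-box before each of 2 start sites. No searched motif was found in the windows of Nr1d1, Nr1d2, Dbp and Arntl. The short core TGACG was present before Per1 and Cry1, and TAGGTCA and TGACGTCA were in none of the 12 windows. Among all 32851 promoters of the same length, 6.02% held the E-box, 0.931% a D-box, 2.23% TAGGTCA, 1.55% TGACGTCA and 17.8% TGACG. A match describes letters in a window and is not evidence of binding.

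The counted unit was the unique molecular identifier (UMI), a tag that stands for a single captured RNA molecule. The matrices covered 12487 barcodes and 5134359 to 7529804 UMIs per library. After filtering, 9861 cells with 20762671 UMIs remained, 2089 to 2810 per library, in 28 clusters that were named by fixed markers as 14 classes, hence names such as "astrocyte-like". The clock genes took no part in the clustering, so class borders did not rest on them. The 9 classes with at least 20 cells in every library were tested. Pairs of libraries shared 6 to 10 kept barcodes, and olfactory ensheathing-like cells were found only in replicate 1 of each group.

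Clock messages were scarce throughout. Over all kept cells the 10 genes gave 7859 UMIs, from 1762 for Per3, 1389 for Dbp and 1366 for Tef down to 180 for Per2 and 120 for Ciart. Levels are given as CPM, the UMIs of a gene per 1000000 UMIs summed over the cells of a class in a library, and 3′ counting takes 1 tag per molecule whatever the length of the transcript. The 4 values of a gene in a class are listed as replicates 1 and 2 without inhibitors and then replicates 1 and 2 with inhibitors. The summed level of the 10 genes was 961 ± 55.8 CPM in astrocyte-like cells (SD, n = 4), 720 ± 89.98 CPM in neuron-like cells, 502 ± 68.8 CPM in mural-like cells and 473 ± 57.5 CPM in ependymal-like cells. It was 333 ± 34.7 CPM in endothelial-like cells, 193 ± 32.3 CPM in microglia-like cells, 169 ± 18.7 CPM in oligodendrocyte-like cells, 161 ± 10.8 CPM in choroid plexus-like cells and 123 ± 64.0 CPM in macrophage/monocyte-like cells. The lowest astrocyte-like library, at 905 CPM, was above the highest neuron-like library, at 855 CPM. CPM does not include the normalization factors of the comparison between classes described below. For choroid plexus-like sums these were 0.588 to 0.770, so their CPM stands lower beside other classes than the fitted level does. For neuron-like sums the factors were 1.39 to 1.56, so their CPM stands higher beside other classes than the fitted level does. The order of the classes is thus one of CPM only.

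**Figure D1:**
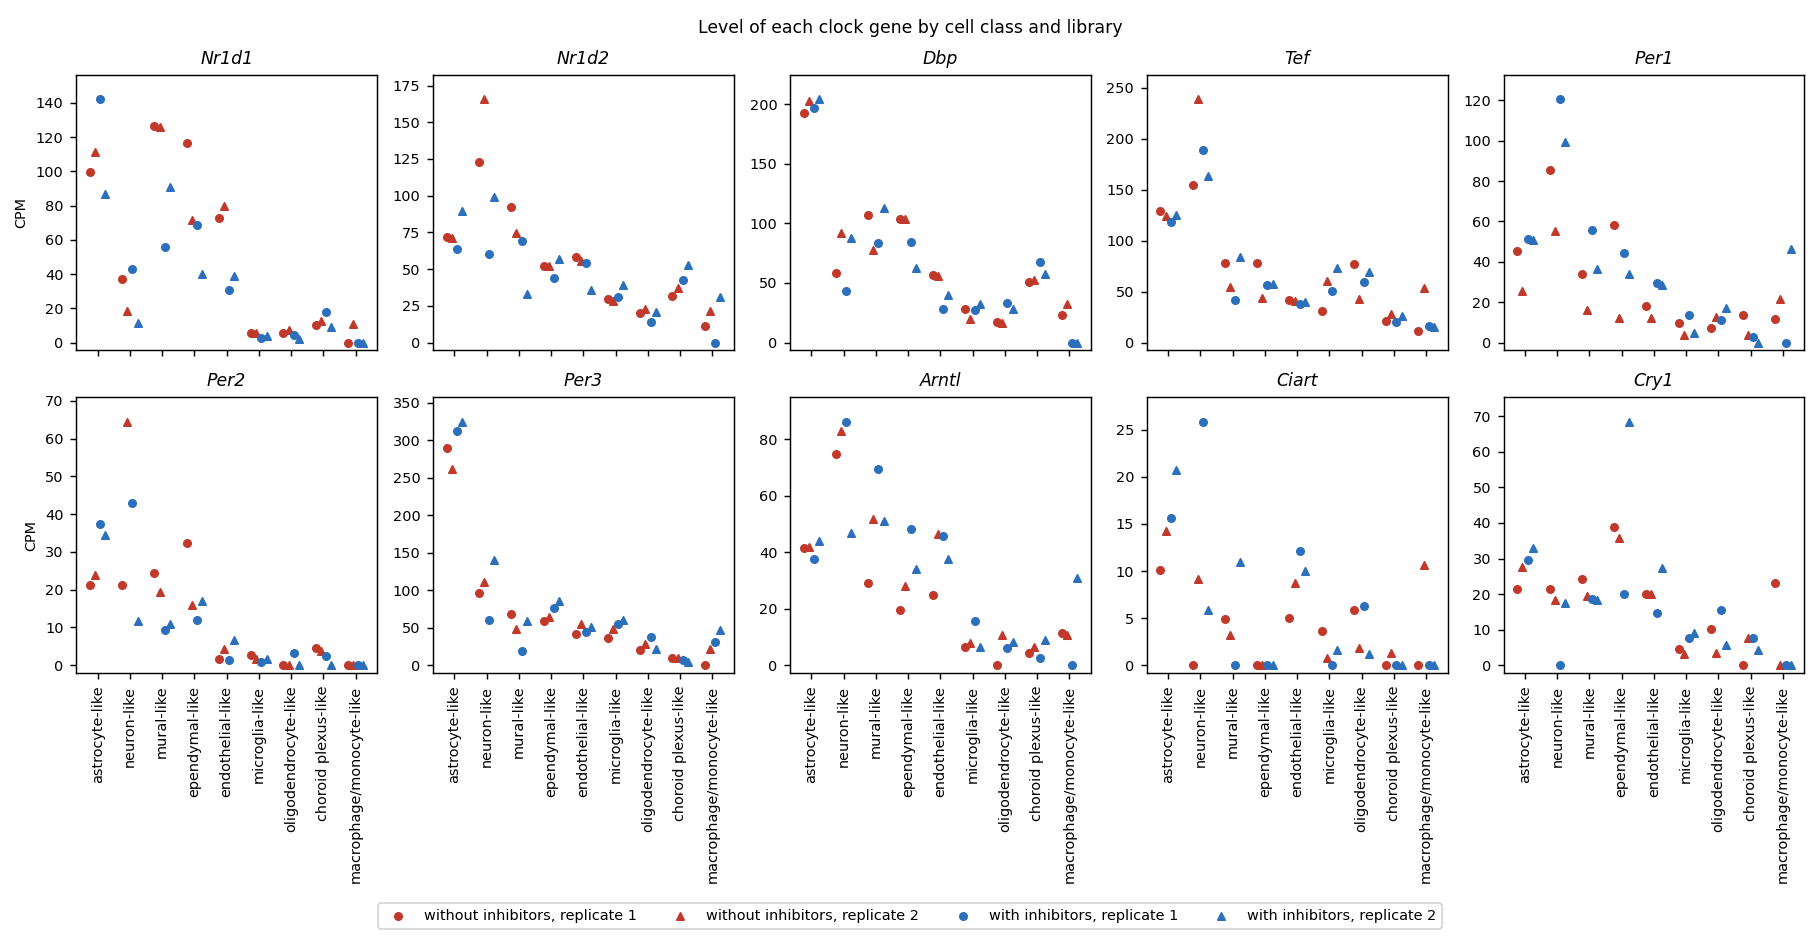
Level of each clock gene in CPM (linear axis, a separate scale for each gene) in 9 cell classes, with 1 point per library. Red marks libraries without inhibitors, blue with inhibitors, circles replicate 1 and triangles replicate 2. Dbp and Per3 stand apart in astrocyte-like cells in all 4 libraries, Tef and Per1 are highest in neuron-like cells on the CPM scale, and most genes are low in microglia-like, oligodendrocyte-like and choroid plexus-like cells.

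To ask in which cells the clock genes are expressed more, each class was compared with the mean of the other 8 classes in a single edgeR fit with the library as a block. Calls needed an adjusted p (Benjamini-Hochberg, over all genes) under 0.05 together with a log2 difference beyond 0.58 in either direction. Of the 10 genes, 9 passed the filter on low counts, and Ciart did not. In astrocyte-like cells all 9 tested genes were called higher, with a median log2 difference of 1.25. In that class 28.1% of the 11898 genes tested were called higher and 15.1% lower. In neuron-like cells 6 genes were higher and 0 lower (27.8% and 18% of all genes), mural-like cells 4 and 0 (23.2% and 7.19%), and ependymal-like cells 4 and 0 (25.7% and 16.2%). In endothelial-like cells 3 genes were higher and 1 lower (23.7% and 14.2% of all genes). The remaining classes had more genes called lower than higher. In microglia-like cells 0 genes were higher and 5 lower (26.9% and 15.7% of all genes), oligodendrocyte-like cells 0 and 6 (22.2% and 19.1%), macrophage/monocyte-like cells 0 and 4 (12.2% and 9.83%), and choroid plexus-like cells 1 and 4 (25.2% and 22.3%). Of the 81 pairs of a gene and a class, 27 were called higher and 20 lower, and 23 of these 47 calls held under every alternative tried.

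**Figure D2:**
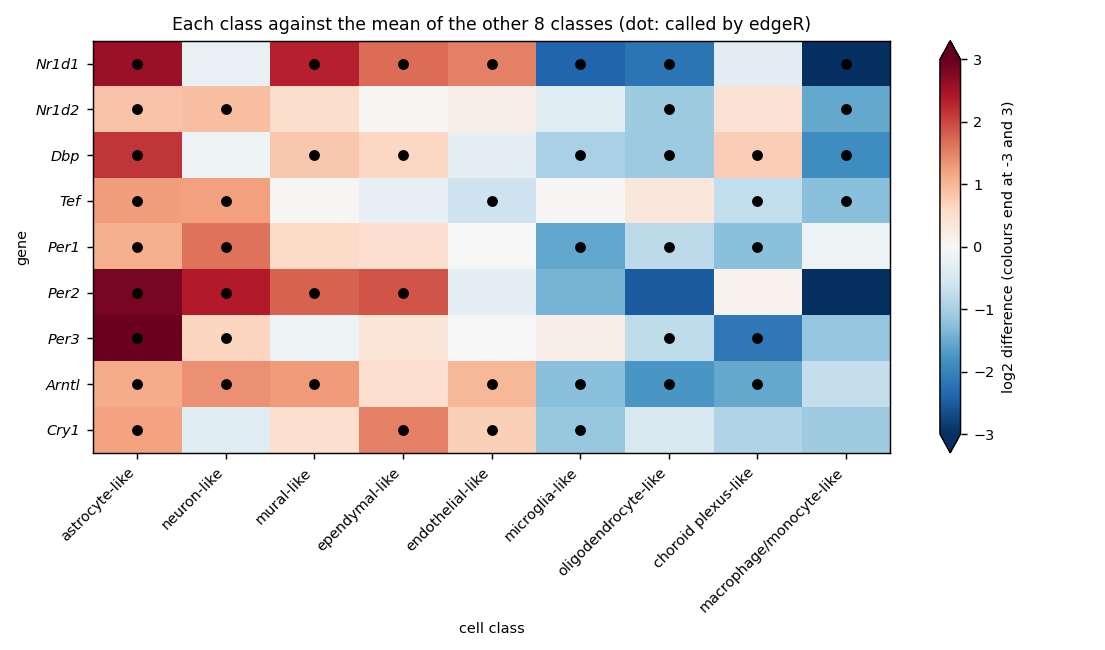
Log2 difference of each class from the mean of the other 8 classes for the 9 tested clock genes (rows genes, columns classes, red higher, blue lower, colours end at -3 and 3). Dots mark pairs called by edgeR, and the astrocyte-like column is red with a dot in all 9 rows.

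Nr1d1 and Nr1d2, the REV-ERB repressors, differed in where they were found. Nr1d1 was high in astrocyte-like, mural-like, ependymal-like and endothelial-like cells and close to absent from microglia-like and oligodendrocyte-like cells, whereas Nr1d2 was spread more evenly. Nr1d1 was at 99.3, 111, 142 and 86.8 CPM in astrocyte-like cells (log2 difference 2.58, SE 0.16, edgeR adjusted p = 3.44e-59) and at 126, 126, 55.5 and 91.1 CPM in mural-like cells (2.34, SE 0.23, adjusted p = 3.24e-23). In ependymal-like cells it was at 117, 71.7, 68.4 and 39.9 CPM (1.69, SE 0.27, adjusted p = 4.84e-09), and in endothelial-like cells at 73.0, 79.7, 31.0 and 39.1 CPM (1.51, SE 0.19, adjusted p = 6.41e-15). Each of these 4 classes overlapped its neighbours in the order of levels. In microglia-like cells Nr1d1 stood at 5.38, 5.46, 2.91 and 4.07 CPM, and in oligodendrocyte-like cells at 5.84, 7.11, 4.69 and 2.31 CPM. It was called lower in both (-2.37 and -2.20), and the calls were not made without replicate 2 of the group without inhibitors (-1.91 and -1.85), where no Nr1d1 UMI was left in the macrophage/monocyte-like class and the mean of the other classes had no lower bound. Nr1d1 was also called lower in macrophage/monocyte-like cells (-2.98), on 1 UMI, and that call was not made by DESeq2. The mean level of Nr1d1 in microglia-like cells was 4.05% of that in astrocyte-like cells, where the summed astrocyte markers stood at 4.01%. In oligodendrocyte-like cells these shares were 4.54% for Nr1d1 and 2.26% for the markers. Whether such levels are background or expression was not tested.

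Nr1d2 had its highest CPM in neuron-like cells, at 123, 166, 60.2 and 99.3 CPM (log2 difference 0.91, SE 0.23, adjusted p = 0.000258), followed by astrocyte-like cells at 71.7, 71.3, 64.0 and 89.6 CPM (0.87, SE 0.15, adjusted p = 1.81e-08). The ranges of these 2 classes overlapped. It was called lower in oligodendrocyte-like cells (-1.08), at 14.1 to 23.1 CPM, and in macrophage/monocyte-like cells (-1.54). The second call rested on 5 UMIs and held in 5 of 13 alternatives. It was not made without replicate 1 (-1.21) or 2 (-1.60) of the group without inhibitors or without replicate 1 with inhibitors (-1.39). Nor was it made by DESeq2, under a stricter cell filter, with doublets kept or in either group alone. In microglia-like cells Nr1d2 was at 29.6, 28.1, 31.0 and 39.1 CPM (-0.36), or 43.1% of the astrocyte-like level and thus well above the 4.01% of the astrocyte markers.

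Dbp and Tef, the PAR bZIP factors, were both called higher in astrocyte-like cells, and Tef in neuron-like cells too. Dbp was at 192, 203, 197 and 204 CPM in astrocyte-like cells, a spread of 5.40 CPM (SD, n = 4) around 199, and did not overlap any other class (log2 difference 2.15, SE 0.11, adjusted p = 4.43e-82). It was also called higher in mural-like cells, at 77.5 to 113 CPM (0.81), in ependymal-like cells, at 62.6 to 104 CPM (0.62), and in choroid plexus-like cells, at 50.9 to 67.8 CPM (0.74). The mural-like call was not made without replicate 2 with inhibitors (0.57) or in the libraries without inhibitors alone. The ependymal-like call was not made without replicate 2 without inhibitors (0.56) or in the libraries with inhibitors alone. It was also lost without the macrophage/monocyte-like class or without cluster 11, a mural-like cluster with endothelial markers. The choroid plexus-like call was not made with total UMIs as library size (0.088) or without the macrophage/monocyte-like class (0.53). Dbp was called lower in microglia-like (-0.98), oligodendrocyte-like (-1.08) and macrophage/monocyte-like cells (-1.86, 5 UMIs in all). The oligodendrocyte-like difference was 0.065 in the libraries with inhibitors alone, where no Dbp UMI was left in macrophage/monocyte-like cells. Tef had its highest CPM in neuron-like cells, at 155, 239, 189 and 163 CPM (1.23, SE 0.19, adjusted p = 6.32e-10), and these did not overlap the 129, 125, 119 and 125 CPM of astrocyte-like cells (1.25, SE 0.12, adjusted p = 1.14e-23). The neuron-like sums carried normalization factors of 1.39 to 1.56 in the fit, which CPM does not include, so every neuron-like CPM stands higher beside other classes than its fitted level does, and the fitted differences of Tef did not separate the 2 classes. In oligodendrocyte-like and microglia-like cells Tef stood at 62.2 ± 14.9 and 54.0 ± 17.7 CPM (SD, n = 4) and neither was called. Tef was called lower in choroid plexus-like cells (-0.74), endothelial-like cells (-0.62) and macrophage/monocyte-like cells (-1.25). The endothelial-like call was not made without replicate 2 of the group without inhibitors (-0.55) or with inhibitors (-0.56). The macrophage/monocyte-like call was not made without replicate 1 of the group without inhibitors (-0.82) or replicate 1 (-1.29) or 2 (-1.17) with inhibitors. It was also not made by DESeq2 or in either group alone, and held in 7 of 13 alternatives.

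The 3 Per genes, repressors of the loop, had separate patterns. Per3 was the most abundant clock message in astrocyte-like cells, at 289, 262, 312 and 324 CPM, and did not overlap any other class (log2 difference 2.95, SE 0.10, adjusted p = 8.84e-177). It was at 96.1, 110, 60.2 and 140 CPM in neuron-like cells (0.65, SE 0.23, adjusted p = 0.0131), a call that was not made without replicate 1 of the group without inhibitors (0.56) or replicate 2 with inhibitors (0.49). In choroid plexus-like cells it was at 8.98, 8.98, 7.53 and 4.41 CPM (-2.15, SE 0.31, adjusted p = 3.89e-11). Per3 was also called lower in oligodendrocyte-like cells (-0.77), except without replicate 2 with inhibitors (-0.46), and in microglia-like cells it was at 49.9 ± 10.0 CPM and not called (0.19). Per3 overlaps Camta1 on the same strand, and reads of the shared stretch could have been split between them.

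Per1 had its highest CPM in neuron-like cells, at 85.4, 55.2, 120 and 99.3 CPM (log2 difference 1.62, SE 0.27, adjusted p = 1.1e-08), above all 4 astrocyte-like values of 45.3, 25.7, 51.5 and 51.0 CPM (1.07, SE 0.19, adjusted p = 4.54e-08). This separation is one of CPM, which leaves out the larger normalization factors of neuron-like sums. It was called lower in microglia-like cells (-1.55), at 3.90 to 13.6 CPM, in choroid plexus-like cells (-1.26) and in oligodendrocyte-like cells (-0.80). The choroid plexus-like call was not made without replicate 1 (-0.90) or 2 (-0.91) with inhibitors. The oligodendrocyte-like call was not made without replicate 1 of the group without inhibitors (-0.47) or replicate 1 with inhibitors (-0.61), nor with the replicate number as a block (-0.65). Per2 was sparse but followed Per1 and Per3 in its leading classes. It was at 21.4, 23.8, 37.4 and 34.5 CPM in astrocyte-like cells (2.86, SE 0.33, adjusted p = 3.14e-17) and at 21.3, 64.4, 43.0 and 11.7 CPM in neuron-like cells (2.39, SE 0.55, adjusted p = 5.69e-05). Per2 was further called higher in ependymal-like cells (1.89) and mural-like cells (1.78), calls that rested on 15 and 16 UMIs. The ependymal-like call was not made without replicate 1 of the group without inhibitors (1.62), and the mural-like call without either replicate of that group (1.505 and 1.55). Neither call was made in the libraries with inhibitors alone, nor the mural-like call without cluster 11. No Per2 UMI was found among 308719 in macrophage/monocyte-like cells, a count of 0 that allows up to 9.72 CPM over the class. With such a class in the mean no other class can be called lower, and the Per2 differences of the other classes are raised. Choroid plexus-like cells, at a mean of 2.71 CPM, thus came out at 0.11. With the macrophage/monocyte-like class left out the higher calls of Per2 held. Per2 was then called lower in microglia-like (-2.04) and oligodendrocyte-like cells (-3.18).

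Cry1 and Ciart, the other repressors, were low everywhere. Cry1 was highest in ependymal-like cells, at 38.9, 35.8, 20.1 and 68.3 CPM (log2 difference 1.502, SE 0.35, adjusted p = 8.24e-05), a range that took in the astrocyte-like 21.4, 27.6, 29.6 and 33.1 CPM (1.21, SE 0.24, adjusted p = 3.32e-06). In endothelial-like cells it was at 14.8 to 27.4 CPM and called higher (0.72), though not without replicate 2 of the group without inhibitors (0.68) or with inhibitors (0.58), nor by DESeq2 (0.52). In microglia-like cells it was at 3.12 to 8.95 CPM and called lower (-1.13), though not without replicate 1 of the group without inhibitors (-0.41), where no Cry1 UMI was left in macrophage/monocyte-like cells. Ciart reached 10.1, 14.3, 15.6 and 20.7 CPM in astrocyte-like cells and 4.98, 8.76, 12.1 and 9.98 CPM in endothelial-like cells. No Ciart UMI was found among 829473 in ependymal-like cells, which allows up to 3.62 CPM over the class. Ciart was not tested between classes.

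Arntl, the activator of the loop, had its highest CPM in neuron-like cells, at 74.7, 82.8, 86.0 and 46.7 CPM (log2 difference 1.38, SE 0.30, adjusted p = 1.5e-05). Mural-like cells at 29.2, 51.6, 69.4 and 51.0 CPM (1.27, SE 0.27, adjusted p = 1.65e-05), astrocyte-like cells at 41.5, 41.9, 37.4 and 44.1 CPM (1.10, SE 0.19, adjusted p = 4.32e-08) and endothelial-like cells at 24.9, 46.4, 45.8 and 37.4 CPM (1.00, SE 0.19, adjusted p = 5.01e-07) were also called higher. These 4 classes overlapped their neighbours in order. The mural-like difference came down to 0.033 and was not called without cluster 11, a mural-like cluster that also held all 8 endothelial markers. Arntl was called lower in microglia-like (-1.26), oligodendrocyte-like (-1.74) and choroid plexus-like cells (-1.54), where the 4 libraries held 0 to 16 UMIs each. By mean CPM its order of classes differed from that of Nr1d1, with neuron-like cells at place 1 for Arntl and place 5 for Nr1d1.

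The clusters within a class were not alike. Among astrocyte-like clusters, cluster 1, led by Agt, Igsf1 and Slc6a11, held Per3 at 346, 335, 341 and 371 CPM, and cluster 3, led by Hapln1 and Chrdl1, at 263, 211, 316 and 305 CPM, below cluster 1 in every library. Dbp ran the other way between the same clusters, at 175, 124, 157 and 171 CPM in cluster 1 and 209, 273, 230 and 225 CPM in cluster 3. Among mural-like clusters, cluster 14, led by Kcnj8, Nts and Vtn, held Nr1d1 at 136, 149, 177 and 164 CPM on 4, 7, 7 and 5 UMIs, and Dbp at 237, 255, 177 and 328 CPM. Cluster 11, which also held endothelial markers, had Dbp at 100, 44.6, 40.2 and 85.6 CPM, below cluster 14 in every library. These are values of clusters made from the same cells, and no test was run between them.

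**Figure D3:**
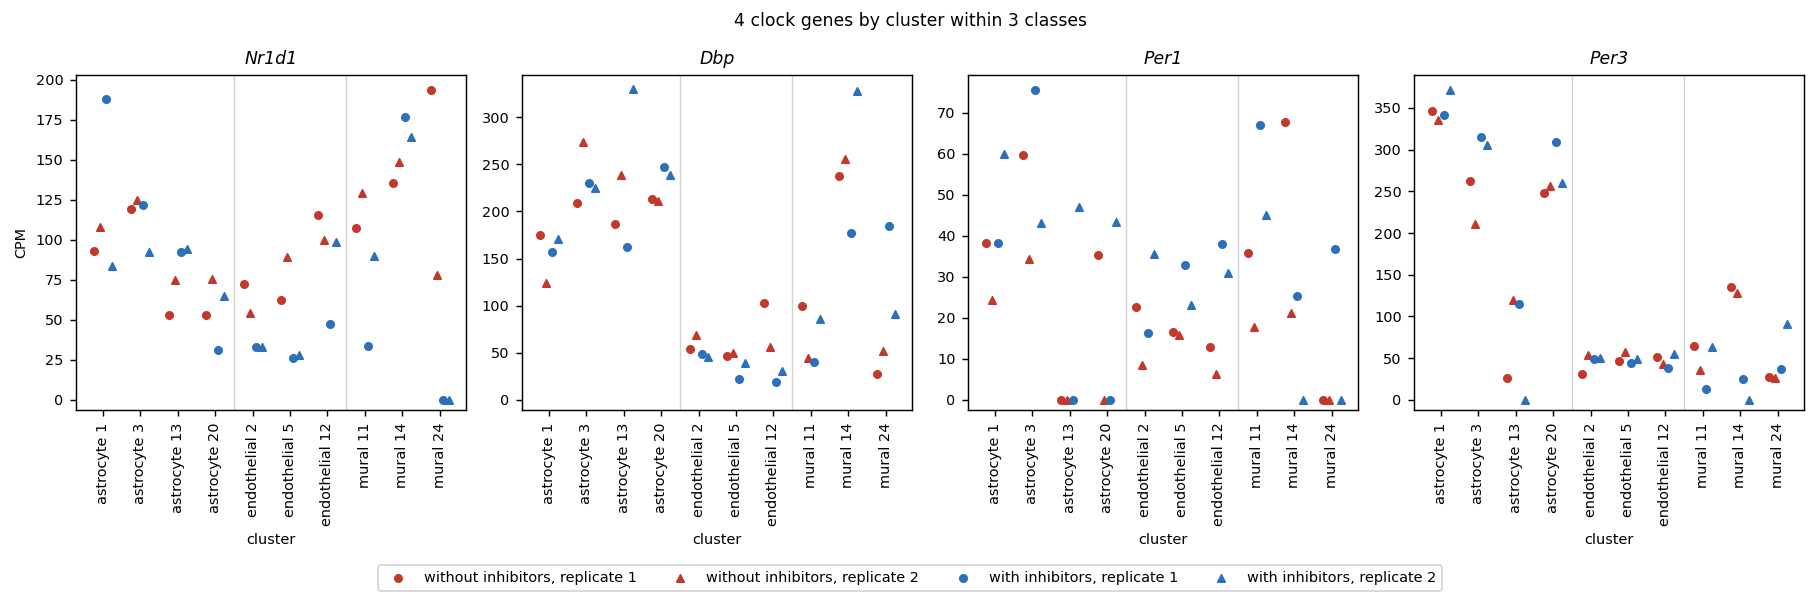
CPM of Nr1d1, Dbp, Per1 and Per3 by cluster (number after the class) in astrocyte-like, endothelial-like and mural-like cells, with 1 point per library and colours and symbols as in the plot by class. In endothelial clusters 2, 5 and 12 both red points for Nr1d1 lie above both blue points, and in mural cluster 14 they lie below.

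The second question was whether the clock genes differed between brains dissociated without and with inhibitors. The libraries of each class were compared with edgeR, and log2 fold changes are without over with inhibitors. Of 90 possible pairs of a gene and a class, 47 passed the filter on low counts. A single pair passed both limits, Nr1d1 in endothelial-like cells. By edgeR 7 of the 47 had an unadjusted p under 0.05, and 3 of these were in endothelial-like cells. Over all genes the share of the 49830 pairs under that limit was lower, at 7.33%. DESeq2 called 0 pairs, with 1 at an unadjusted p under 0.05. In endothelial-like cells 0.0363% of the 8267 genes tested were called in either direction. Over all cells 0 of the 10 genes were called, where 0.0435% of 13793 genes were, and the fitted log2 fold changes ran from -0.53 (SE 0.23) for Per1 to 0.49 (SE 0.15) for Nr1d1. Of these 10, edgeR put 2 and DESeq2 0 at an unadjusted p under 0.05, and DESeq2 called 0. By edgeR 6.84% of all genes were under that limit. With 2 libraries against 2 the exact permutation test cannot give a p below 0.333. The p-values of these fits rest on the spread between single animals, with each gene's estimate drawn towards that of other genes.

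Nr1d1 in endothelial-like cells was at 73.0 and 79.7 CPM without inhibitors and at 31.0 and 39.1 CPM with inhibitors, on 44, 91, 23 and 47 UMIs. Both libraries without inhibitors were above both with them, and the log2 fold change was 1.13 (SE 0.21). The values are given by cluster for description only, since the clusters split the same cells of the same 4 libraries. Nr1d1 was at 72.3 and 54.1 CPM without and 32.8 and 33.0 CPM with inhibitors in cluster 2, at 62.7 and 89.0 against 26.4 and 27.8 CPM in cluster 5, and at 115 and 99.7 against 47.7 and 98.7 CPM in cluster 12, which was led by Gkn3, Bmx and Vegfc and held 5 to 16 Nr1d1 UMIs per library. The gene did not pass both limits without replicate 2 of the group without inhibitors (1.02) or replicate 1 with inhibitors (0.99), nor by DESeq2 (1.13), with total UMIs as library size (1.10), under a stricter cell filter (1.15) or with doublets kept (1.06).

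Marker sums of some other cell types differed between groups in endothelial-like cells, and those of the rest overlapped. The summed level of 6 erythrocyte markers was 697 and 1223 CPM without inhibitors and 152 to 507 CPM with inhibitors, with 5 or 6 of the 6 detected and Alas2 the only one at 0 in a library. The sum of 9 astrocyte markers was 423 to 511 CPM without and 363 to 388 CPM with inhibitors, that of 9 oligodendrocyte markers 752 to 772 and 643 to 687 CPM, and that of 9 mural markers 428 to 463 and 297 to 412 CPM, with all 9 detected in every library in each case. Macrophage/monocyte markers were at 9.64 to 13.3 CPM without and 4.04 to 7.48 CPM with inhibitors. The class's own endothelial markers were at 25261 to 25549 and 23788 to 25205 CPM. The sums of the remaining lists overlapped between groups, such as microglia markers at 143 to 158 and 146 to 147 CPM. The part of these markers in the result was not tested. As means over all 4 libraries, the astrocyte markers stood in endothelial-like cells at 2.30% of their astrocyte-like level and Nr1d1 at 50.7% of its own. In mural-like cells Nr1d1 stood at 90.8%. These means take in both groups and do not describe the difference between them. Thra, the thyroid hormone receptor gene that overlaps Nr1d1 on the opposite strand, was at 166 and 145 CPM without and 153 and 166 CPM with inhibitors (-0.04, SE 0.14).

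Dbp had the next largest positive value of the endothelial-like genes, at 56.4 and 56.1 CPM without and 28.3 and 39.9 CPM with inhibitors (0.69, SE 0.24), and did not pass the limits. By cluster, again parts of the same cells, Dbp was at 54.2 and 68.3 against 49.2 and 45.7 CPM in cluster 2, 46.2 and 49.3 against 21.97 and 38.7 CPM in cluster 5 and 102 and 56.1 against 19.1 and 30.9 CPM in cluster 12. Per1 lay on the other side, at 18.3 and 12.3 CPM without and 29.6 and 28.3 CPM with inhibitors (-0.97, SE 0.34). The groups did not overlap for Per1 in clusters 5 and 12 and did in cluster 2. Of the 8 endothelial-like genes tested, Nr1d1, Nr1d2, Dbp and Tef had both libraries without inhibitors above both with them, and Per1 had both below. Among all 8267 genes 14.5% were higher in this way and 19.6% lower. Nr1d2 was at 58.1 and 55.2 CPM without and 53.8 and 35.8 CPM with inhibitors (0.41, SE 0.23) and did not pass the limits. The remaining log2 fold changes were 0.11 (SE 0.24) for Tef, 0.07 (SE 0.22) for Per3, -0.05 (SE 0.27) for Arntl and -0.14 (SE 0.34) for Cry1.

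**Figure D4:**
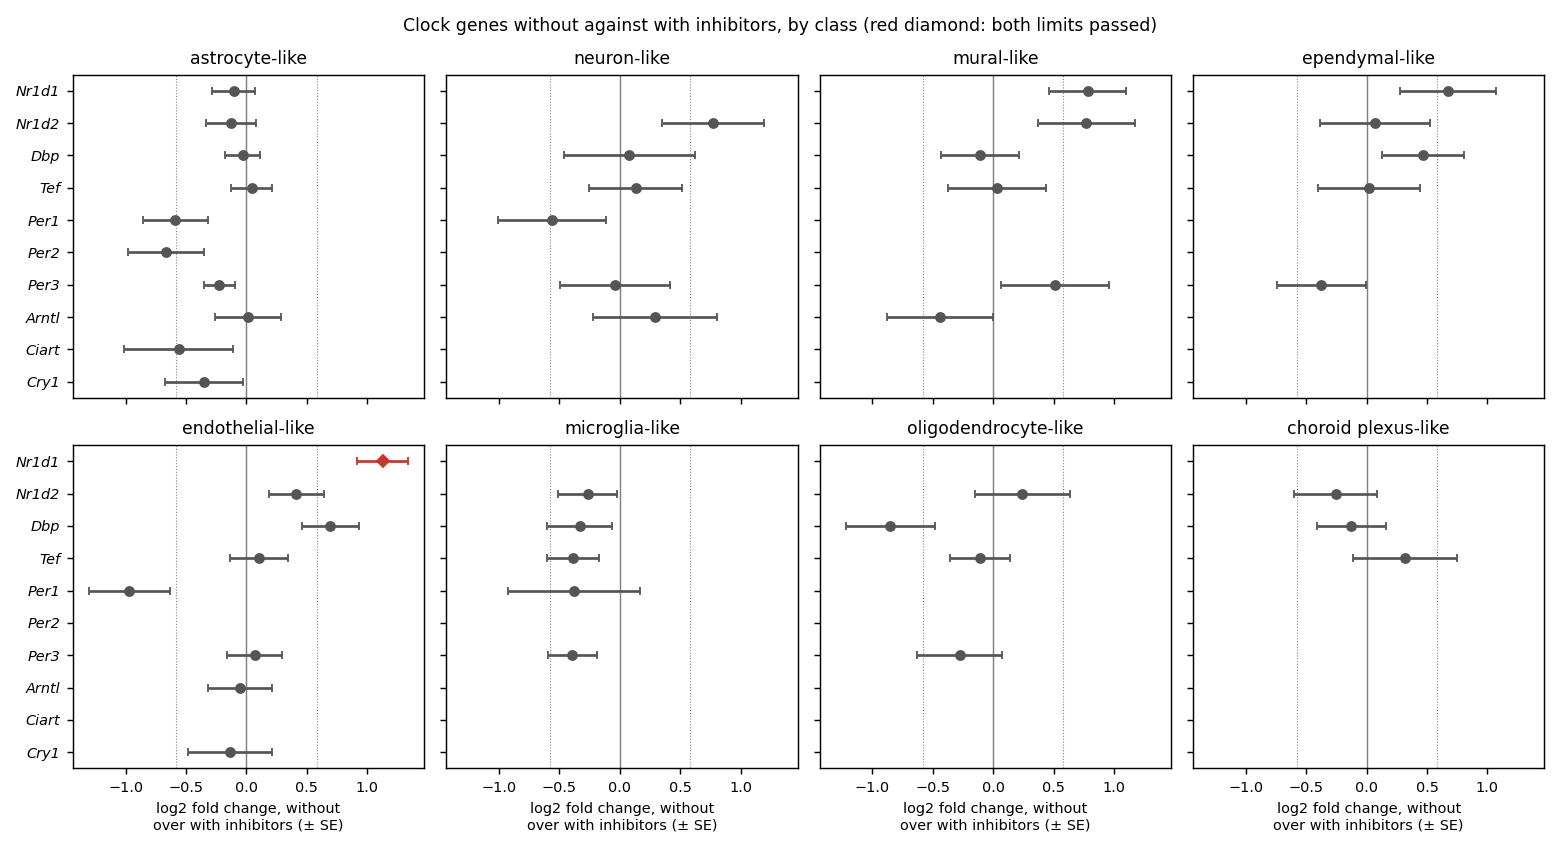
Log2 fold change without over with inhibitors (± SE, 2 libraries per group) of each clock gene that passed the filter on low counts, by class. Dotted lines mark -0.58 and 0.58. The red diamond, Nr1d1 in endothelial-like cells at 1.13, is the only pair past both limits.

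In mural-like cells Nr1d1 was at 126 and 126 CPM without and 55.5 and 91.1 CPM with inhibitors (0.78, SE 0.32), and Nr1d2 at 92.4 and 74.2 against 69.4 and 32.8 CPM (0.77, SE 0.40). These 2 of 6 tested genes were higher without overlap, as were 14.1% of all 4669 genes, and 0 were called, where 0.257% of genes were. The clusters of the class differed in direction, on few UMIs and without a test. In cluster 11, with endothelial markers, Nr1d1 was at 107 and 129 CPM without and 33.5 and 90.1 CPM with inhibitors, whereas in cluster 14 it was at 136 and 149 CPM without and 177 and 164 CPM with inhibitors. The 45 cells of cluster 24, led by Tagln, Acta2 and Myh11, held 10 Nr1d1 UMIs without and 0 with inhibitors.

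Astrocyte-like cells, which held the most clock RNA, had 0 of 10 genes called, where 0.0479% of 8346 genes were. Nr1d1 was at 99.3 and 111 CPM without and 142 and 86.8 CPM with inhibitors (-0.11, SE 0.18), so the groups overlapped. Dbp differed by -0.03 (SE 0.14), Tef by 0.04 (SE 0.17), Arntl by 0.01 (SE 0.27) and Nr1d2 by -0.13 (SE 0.21). The Per and Cry genes and Ciart had lower values, all below 0. Per2 was at 21.4 and 23.8 CPM without and 37.4 and 34.5 CPM with inhibitors (-0.67, SE 0.32), Per1 at 45.3 and 25.7 against 51.5 and 51.0 CPM (-0.59, SE 0.27), and Ciart at 10.1 and 14.3 against 15.6 and 20.7 CPM (-0.56, SE 0.45). Cry1 differed by -0.35 (SE 0.32) and Per3 by -0.22 (SE 0.13). For these 5 genes both libraries without inhibitors were below both with them, as for 15.9% of all genes in this class, and none of the 10 genes was above, as were 17.6% of all genes.

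The other classes had 0 clock genes called. In microglia-like cells, where 0.479% of 8770 genes were called, the 5 tested genes had log2 fold changes of -0.39 (SE 0.20) for Per3, -0.39 (SE 0.21) for Tef, -0.38 (SE 0.55) for Per1, -0.33 (SE 0.27) for Dbp and -0.27 (SE 0.24) for Nr1d2. In oligodendrocyte-like cells (0.217% of 6456 genes called) Dbp was at 17.5 and 16.01 CPM without and 32.8 and 27.7 CPM with inhibitors (-0.85, SE 0.37), on 12, 9, 21 and 24 UMIs. In neuron-like cells (0% of 3539 genes called, 79 at an unadjusted p under 0.05 by edgeR, and 0 called by DESeq2) Nr1d2 was at 123 and 166 CPM without and 60.2 and 99.3 CPM with inhibitors (0.77, SE 0.42), and Per1 at 85.4 and 55.2 against 120 and 99.3 CPM (-0.56, SE 0.44). In ependymal-like cells (0% of 4166 genes called, 172 at an unadjusted p under 0.05 by edgeR, and 0 called by DESeq2) Nr1d1 differed by 0.67 (SE 0.40) and Dbp by 0.46 (SE 0.34). In choroid plexus-like cells, where 5.37% of 4653 genes were called, the 3 tested genes lay between -0.26 and 0.32, and counting by total UMIs moved the median of all genes there by -0.18. No clock gene passed the filter in macrophage/monocyte-like cells, where 0.622% of 964 genes were called.

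Per1 was set beside Fos, an immediate-early gene that many cells switch on after a stimulus. Over all cells Fos was at 265 and 149 CPM without and 5.52 and 5.14 CPM with inhibitors (log2 fold change 5.35, SE 0.38), while Per1 was at 22.2 and 13.4 against 28.1 and 25.7 CPM (-0.53, SE 0.23). In microglia-like cells Fos was at 753 and 416 CPM without and 3.88 and 2.44 CPM with inhibitors, and Per1 at 9.86 and 3.90 against 13.6 and 4.88 CPM. The groups did not overlap for Fos in either case, and of these values of Fos the difference over all cells passed both limits and that in microglia-like cells did not. For Per1 both libraries without inhibitors were below both with them over all cells, as for 30.3% of all genes, and the groups overlapped in microglia-like cells. In endothelial-like cells Fos was at 33.2 and 7.89 CPM without and 0 and 4.99 CPM with inhibitors and did not pass the filter on low counts.

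The other gene lists were read in the same comparison. Of 10 immediate-early genes, 3 were called higher without inhibitors over all cells (Fos, Zfp36 and Junb), 6 of 9 tested in microglia-like cells, 6 of 7 in macrophage/monocyte-like cells, 3 of 5 in oligodendrocyte-like cells and 2 of 7 in mural-like cells, and 0 were lower. In microglia-like cells the largest of the called genes were Dusp1, a phosphatase that switches off MAP kinases (5.54, SE 0.24), and Ier2 (2.94, SE 0.20). Zfp36, which destabilizes inflammatory messages (2.87, SE 0.13), and Atf3 (2.48, SE 0.24) came next among them. The median of all 9 tested was 2.94, so genes that were not called lay above Ier2. In macrophage/monocyte-like cells Dusp1 had 43 and 69 UMIs without and 0 with inhibitors, and Fos (6.01, SE 0.64), Jun (3.31, SE 0.45) and Zfp36 (3.08, SE 0.38) followed. In mural-like cells the called genes were Fos (3.77, SE 0.34) and Junb (1.48, SE 0.30), and in oligodendrocyte-like cells Fos (5.66, SE 0.55), Junb (3.31, SE 0.54) and Jun (1.15, SE 0.18). In endothelial-like cells, where Nr1d1 was called, 0 of 8 immediate-early genes were, with 0 at an unadjusted p under 0.05 by edgeR or DESeq2, and their median log2 fold change was -0.18 beside 0.00 for all genes.

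The list of 19 other clock genes, with the partners, kinases, ROR receptors and further repressors of the loop, had 0 genes called in any class or over all cells, where 18 were tested and their median log2 fold change was -0.01. Over the classes 75 pairs of these genes and a class were tested, 5 had an unadjusted p under 0.05 by edgeR, and DESeq2 called 0 with 0 under that limit. In choroid plexus-like cells the 8 that were tested had a median of -0.54 beside 0.00 for all genes. Of 8 glucocorticoid-responsive genes only Sgk1, a kinase, was called, in microglia-like cells (0.59, SE 0.13), and DESeq2 called 0. Over the classes 14 of 48 pairs of these genes had an unadjusted p under 0.05 by edgeR, and 6 of 69 by DESeq2. Of 7 temperature-responsive genes the heat-shock chaperones Hspa1a (5.96, SE 0.24), Hspa1b (4.71, SE 0.51) and Hsp90aa1 (0.87, SE 0.12) were called higher in microglia-like cells and Hspa1a (1.41, SE 0.34) in oligodendrocyte-like cells. The cold-inducible RNA-binding protein gene Cirbp was called lower in choroid plexus-like cells (-1.46, SE 0.37). Over the classes 9 of 49 pairs of temperature-responsive genes had an unadjusted p under 0.05 by edgeR, and 6 of 62 by DESeq2. In endothelial-like cells 0 genes of these 3 lists were called. Of the glucocorticoid-responsive genes there, 2 of 7 by edgeR and 2 of 8 by DESeq2 had an unadjusted p under 0.05.

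**Figure D5:**
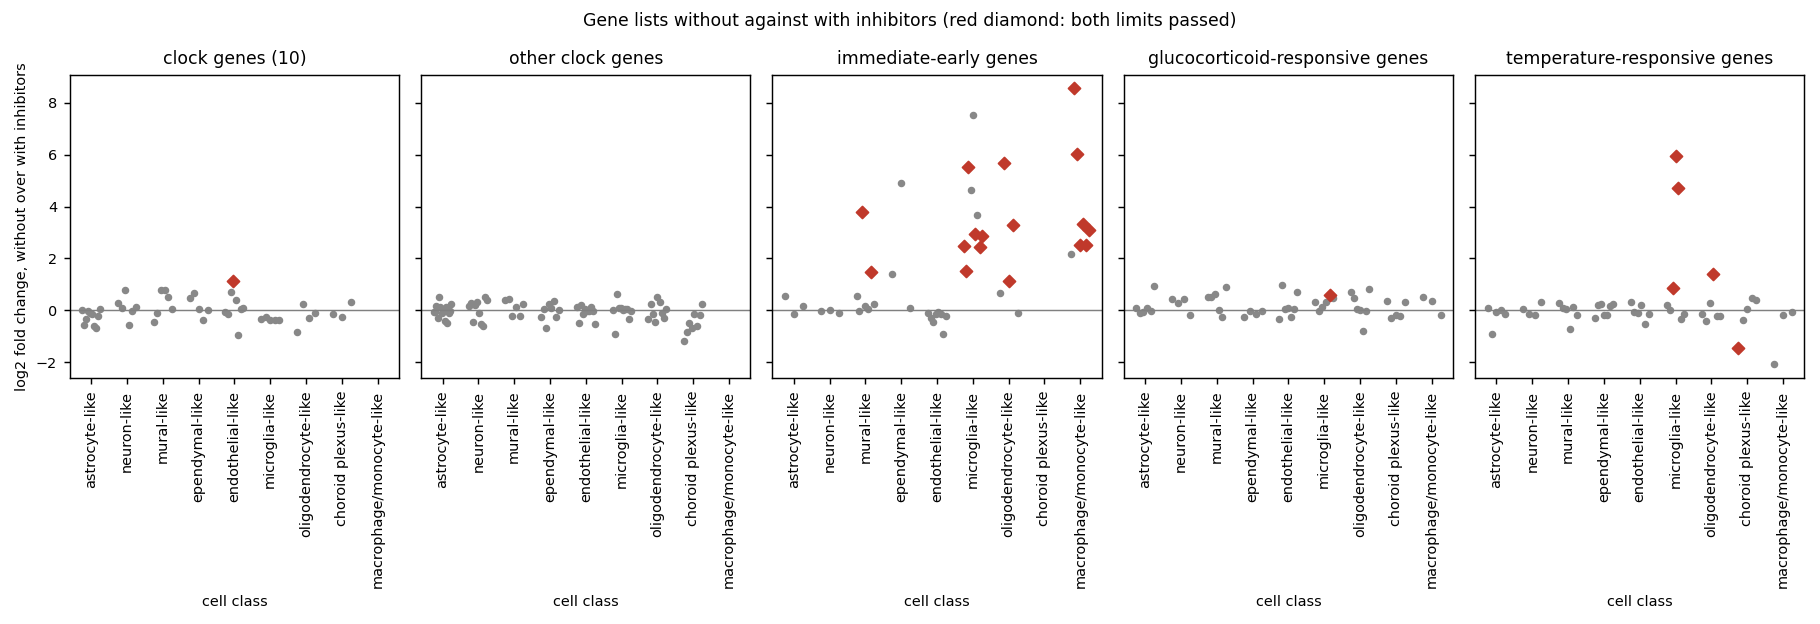
Log2 fold change without over with inhibitors for 5 gene lists, with 1 point per gene that passed the filter on low counts in a class. Red diamonds passed both limits. Immediate-early genes have the highest values, in macrophage/monocyte-like cells, whereas the 10 clock genes and the 19 other clock genes show a single diamond, Nr1d1 in endothelial-like cells.

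The 19 other clock genes were also compared between classes. In astrocyte-like cells 8 of the 14 tested were called higher and 1, Csnk1e, lower (-0.83), beside 28.1% and 15.1% of all genes, with a median log2 difference of 1.21. The largest were Rorb (6.24, SE 0.13), Cry2 (2.70, SE 0.17), Hlf, the remaining PAR bZIP factor (2.40, SE 0.16), and Bhlhe40 (2.25, SE 0.15). In microglia-like cells 4 were higher and 5 lower, beside 26.9% and 15.7% of all genes. The repressor Bhlhe41 was higher there (3.16, SE 0.09) and Bhlhe40 lower (-3.53, SE 0.32). In endothelial-like cells 5 were higher and 4 lower, beside 23.7% and 14.2% of all genes, with Bhlhe40 higher (1.65, SE 0.16) and Bhlhe41 lower (-3.46, SE 0.23), the reverse of microglia-like cells.

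The genes whose levels most resembled each of 3 clock genes were ranked by Pearson's r over 36 sums of a class in a library, after the mean of each class was taken off, among 7673 genes. For Nr1d1 they were Lcat (0.85), Apbb1 (0.84), Ndn (0.80), AI480526 (0.77) and Lrba (0.76), with Tef at rank 126 and Dbp at rank 381. For Dbp they were Sort1 (0.93), Asf1a (0.93), Nudt19 (0.91), Rybp (0.91) and Upf3b (0.91), with Hlf at rank 75. For Per1 they were Gm47283 (0.78), Mdm4 (0.77), Tmem30a (0.77), Dph5 (0.77) and Nom1 (0.77). The clock genes were thus not each other's nearest neighbours. The sums share libraries, and those of macrophage/monocyte-like cells, which hold few UMIs, weigh heavily.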

How the data were processed

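The authors deposited raw counts of UMIs per gene and cell barcode for each of 4 libraries (10x Genomics 3′ version 2 chemistry). Per the submitters' processing notes these came from bcl2fastq and Cell Ranger 3.0.0 on mm10 (GRCm38), and per the study's methods the annotation was a filtered Ensembl 93. Whether strand was used in counting is not given in the sources used here. Members and gene lists were chosen with earlier results of these data known.

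Cells were kept from 400 detected genes upward and at a mitochondrial share of at most 20%, followed by removal of 206 doublets (2.05%) scored against simulated ones. Leiden clustering (resolution 1, 15 neighbours, 30 components, 2000 variable genes without the listed and mitochondrial genes) gave 28 clusters. A name needed 3 markers with a log2 fold of at least 1 and detection in 10% of cells. Counts were summed per class and library and tested with edgeR 4.0.16 (filterByExpr, TMM, robust quasi-likelihood) in R 4.3.3. Inhibitor groups were compared by class without a block, and classes with the library as a block. DESeq2 1.42.0, other scalings, filters and left-out libraries were alternatives. On simulated counts with log2 folds of 1 and 2, 37 of 89 and 99 of 102 changed genes were called in endothelial-like sums of 8023 genes, with 10 false calls. The simulated spread between libraries was set to the same value for every gene and was not taken from these data. In the comparison of astrocyte-like cells with other classes, 185 of 185 genes simulated at a log2 difference of 2 were called among 9549, with 3 false calls. Named genes were the 10 members in every class, of other lists at most 4 called genes per list and class, largest first, and Thra, Fos and the 5 nearest genes of Nr1d1, Dbp and Per1. Values of clusters and of other clock genes between classes were added after they were seen. Python 3.11.15, scikit-learn 1.9.0 and leidenalg 0.10.2 were used. Gene overlaps came from GENCODE M21. The sum of a tested class in a library held 63405 to 1283216 UMIs.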

Additional observations from a re-analysis of the deposited data

Results flagged for a closer look

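Dbp and Nr1d2 had libraries that did not overlap between inhibitor groups in opposite directions in different classes, and these differences between classes were not tested. Nr1d2 was higher without inhibitors in endothelial-like (log2 fold change 0.41), mural-like (0.77) and neuron-like cells (0.77), and lower in microglia-like (-0.27) and choroid plexus-like cells (-0.26). Dbp was higher without inhibitors in endothelial-like (0.69) and ependymal-like cells (0.46), and lower in oligodendrocyte-like (-0.85) and choroid plexus-like cells (-0.13). Such an order was common among all genes, at 14.5% higher in endothelial-like, 14.1% in mural-like, 13.2% in neuron-like and 15.03% in ependymal-like cells, and 20.05% lower in microglia-like, 35.2% in choroid plexus-like and 17.7% in oligodendrocyte-like cells. None of the 9 values passed both limits in its own class. Without replicate 1 with inhibitors the choroid plexus-like value of Dbp was 0.018. With total UMIs as library size it was -0.30, and with doublets kept the oligodendrocyte-like value was -0.52.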

How the results depend on the processing

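The single pair called between inhibitor groups was also called without the filter on low counts, with the replicate block (1 pair) and without the mixed mural-like cluster. It was not called (0 pairs) by DESeq2, with total UMIs as library size, under the stricter cell filter or with doublets kept, and leaving out 1 library gave 0 to 1 pairs. Its log2 fold change stayed between 0.99 and 1.36. Calls between classes numbered 27 higher (21 to 29 over all alternatives, 24 to 27 with 1 library left out) and 20 lower (15 to 17 with 1 library left out), and fell to 9 lower in the libraries with inhibitors only, where no UMI of Nr1d1, Dbp, Per2 or Cry1 was left in macrophage/monocyte-like cells. There the Dbp difference of oligodendrocyte-like cells turned to 0.065.

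The labels and methods tie the replicate numbers to no shared litter or day. Olfactory ensheathing-like cells were found in both libraries numbered 1 (29 and 32 cells) and in neither numbered 2. Deviations of same-numbered libraries correlated at 0.08 over all cells and at -0.17 in neuron-like cells. There the replicate block called 1 gene against 0 without it, and a block with crossed numbers, chosen after seeing the data, called 0. Leaving out the mixed cluster and the macrophage/monocyte-like class were also chosen after seeing the data. Between classes the replicate block left 27 higher and 20 lower pairs. Depth limits the sparse genes, since Per2 and Ciart gave 180 and 120 UMIs in all.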
